A study of Mus musculus with 4 samples.

Results

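The unfolded protein response is read here through 32 named genes of the endoplasmic reticulum (ER): its chaperones, stress sensors, transcription factors and degradation genes. The members were taken by symbol from a table of 21931 genes, and all 32 were found, on 33 rows. Ddit3 has 2 rows, of which the second, 105 bases long, had 0 reads in all 4 libraries and was not tested. RNA was sequenced from untreated lung tissue of C57BL6 mice at 2 months of age. The groups were 1 wild-type library, 2 libraries with the genotype Dnah9 knockout, and 1 library with the genotype label Hez, which is kept as written because the labels do not spell it out. Dnah9 encodes a motor protein of the outer dynein arms of motile cilia, and which of its exons were deleted is not stated in the labels.

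Secreted and membrane proteins are folded in the ER by chaperones and disulfide isomerases. When unfolded proteins build up there, the membrane sensors Ern1 (IRE1), Eif2ak3 (PERK) and Atf6 signal to the nucleus, through the transcription factors Xbp1, Atf4 and Atf6 itself. The ATF6 and XBP1 arms are known for raising chaperones and degradation genes, and the PERK arm for raising Atf4 and its target Ddit3 (CHOP). In lung, alveolar type 2 cells, airway secretory cells and plasma cells carry a large ER because they secrete much protein.

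Many ER chaperone genes carry the ER stress element (ERSE) near their start, which is why these stretches are shown: it is the site that ties the chaperones to the ATF6 arm. Each sequence runs 5′ to 3′ on the gene's own strand, upstream of the RefSeq start in the promoter table of GRCm38.p6, and capitals mark an exact match to CCAAT, 9 bases of any kind and CCACG, or to its reverse complement. They are the 6 members with a match that had the smallest unadjusted p in knockout against wild type.
Hspa5: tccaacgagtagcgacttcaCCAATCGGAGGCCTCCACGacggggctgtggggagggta
Hsp90b1, nearer the start: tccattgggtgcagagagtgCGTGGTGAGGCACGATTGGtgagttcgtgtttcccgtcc
Hsp90b1, farther from the start: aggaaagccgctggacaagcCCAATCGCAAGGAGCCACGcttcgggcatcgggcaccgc
Calr: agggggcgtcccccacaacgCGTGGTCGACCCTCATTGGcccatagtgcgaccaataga
Pdia6: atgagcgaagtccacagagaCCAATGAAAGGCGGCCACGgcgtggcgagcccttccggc
Syvn1: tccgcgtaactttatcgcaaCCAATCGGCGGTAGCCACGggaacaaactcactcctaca
Dnajc3: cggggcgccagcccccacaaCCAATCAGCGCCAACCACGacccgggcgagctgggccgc

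On GRCm38.p6 the Hspa5 stretch is chr2:34772005-34772063 on the plus strand, and the match ends 46 bases before the start. The Hsp90b1 stretches are chr10:86705513-86705571 and chr10:86705618-86705676 on the minus strand, with matches ending 88 and 193 bases before the start. The Calr stretch is chr8:84847055-84847113 on the minus strand. The Pdia6 stretch is chr12:17266471-17266529, the Syvn1 stretch chr19:6046512-6046570 and the Dnajc3 stretch chr14:118937807-118937865, all on the plus strand. The match lies in the forward direction in Hspa5, Pdia6, Syvn1 and Dnajc3, in reverse in Calr, and once in each direction in Hsp90b1.

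Library totals ran from 15860478 to 16553480 reads. Dnah9 had 917 reads in wild type, 420 in Hez, and 240 and 254 in knockout libraries 1 and 2. Levels are given below as CPM, counts scaled to the normalised library total. All 9 defining lung markers were detected, from the epithelial gene Epcam at 52.3 CPM or more to the club cell gene Scgb1a1 at up to 16734 CPM. Since the tissue is a mixture of cells, a lower level cannot tell fewer cells of a type apart from less RNA per cell.

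In the knockout libraries most of the chaperones and disulfide isomerases among the members lay above both reference libraries, and none of the 3 sensors did. Both knockout libraries exceeded wild type and Hez for 16 of 32 members, against 17.5% of all 15055 genes tested, and lay below both for 0 members, against 16.3%. Both exceeded wild type for 24 members, against 33.0% of genes. Of these 16, 9 are among the 11 chaperones and cochaperones, 3 are the 3 disulfide isomerases and 4 are among the 7 degradation genes. By 95% exact Poisson intervals, which cover counting error only, Hspa5, Hsp90b1, Calr, Hyou1, Pdia3 and Pdia6 stood clear of both references. For the others among the 16, the interval of a knockout library overlapped that of a reference. Of the 3 sensors, 3 transcription factors, 3 outputs of the integrated stress response (ISR) and 2 translocation genes, 0 were above both. Among genes at a mean of 10 CPM or more the count above both was 15 of 28 members, against 19.1% of genes, and below both 0, against 15.3%. No member passed the test over all genes, which is given after the values.

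**Figure D1:**
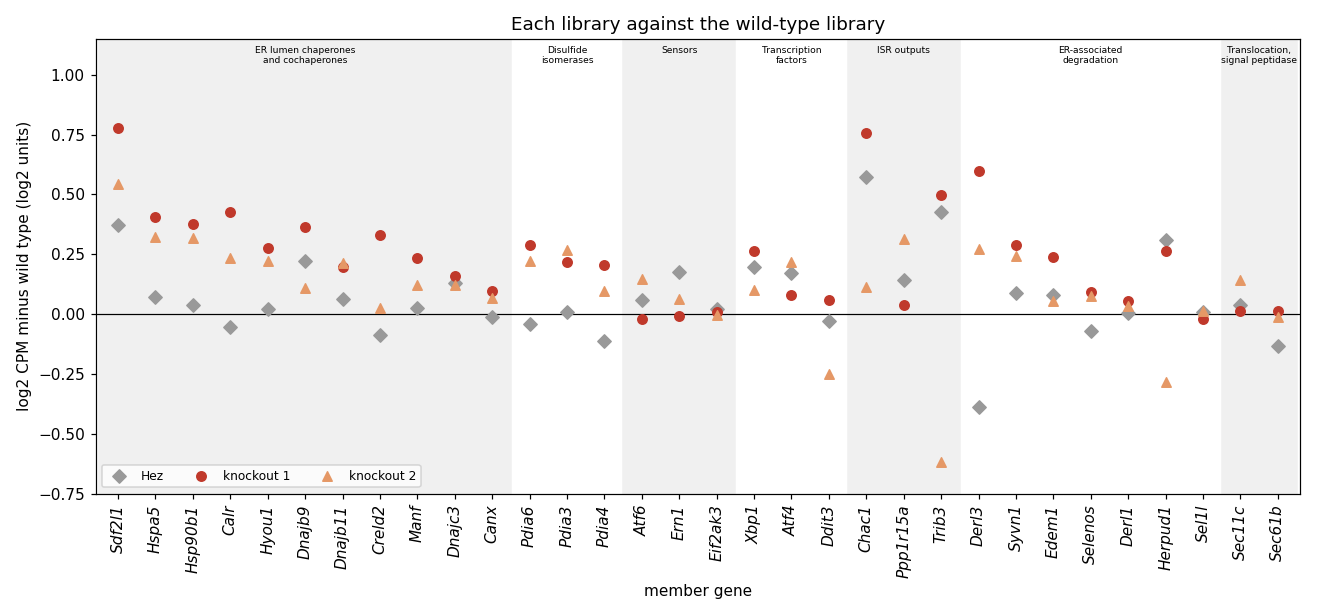
Difference in log2 CPM from the wild-type library (vertical axis, log2 units) for the 32 tested members, grouped by role along the horizontal axis; diamonds are Hez, circles knockout 1 and triangles knockout 2. Both knockout symbols lie above 0 and above the diamond in 9 of 11 chaperones and cochaperones, and in 0 of 3 sensors.

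Hspa5 (BiP, the main ER Hsp70 chaperone, which also holds the sensors inactive; ENSMUSG00000026864) lies on chromosome 2 from 34661982 to 34667559 on GRCm39. It stood at 494 CPM in wild type, 519 in Hez, 655 in knockout 1 and 617 in knockout 2. The knockout mean was 636 ± 26.8 CPM (SD, n = 2), and neither knockout library overlapped a reference. The log2 fold against wild type was 0.36 (SE 0.0857, edgeR adjusted p = 0.445).

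Hsp90b1 (GRP94, the ER Hsp90; ENSMUSG00000020048, chromosome 10, 86526073 to 86541373) stood at 373 CPM in wild type, 382 in Hez, 484 in knockout 1 and 464 in knockout 2. Its order over the libraries was the same as for Hspa5. The log2 fold against wild type was 0.35 (SE 0.088, edgeR adjusted p = 0.509). Calr (calreticulin, a lectin chaperone for glycoproteins; ENSMUSG00000003814, chromosome 8, 85568479 to 85573563) stood at 481 CPM in wild type, 463 in Hez, 647 in knockout 1 and 565 in knockout 2. Here Hez was the lowest library, and the knockout libraries differed more from each other than for Hsp90b1. The log2 fold was 0.33 (SE 0.102, edgeR adjusted p = 0.677).

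Sdf2l1, which works with BiP and its cochaperones, had the largest fold against wild type of the tested members, and few reads. It had 186 reads in wild type, 246 in Hez, 322 in knockout 1 and 267 in knockout 2. These correspond to 11.5, 14.9, 19.8 and 16.8 CPM, so Hez lay between wild type and the knockouts. The 95% exact Poisson interval, which covers counting error only, was 13.1 to 16.9 CPM in Hez and 14.8 to 18.9 in knockout 2, so these libraries overlapped. The log2 fold against wild type was 0.67 (SE 0.208, edgeR adjusted p = 0.677), and against Hez 0.30 (SE 0.202).

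Hyou1 (GRP170, a nucleotide exchange factor for BiP) stood at 126 CPM in wild type, 128 in Hez, 153 in knockout 1 and 147 in knockout 2, a log2 fold of 0.25 against wild type (SE 0.103, edgeR adjusted p = 0.934). The J-domain cochaperone Dnajb11 stood at 89.3, 93.4, 102 and 104 CPM in the same order, a log2 fold of 0.21 (SE 0.0992, edgeR adjusted p = 0.996). Both genes kept the knockout libraries above the references. For 2 other J-domain cochaperones Hez lay between the knockouts. Dnajb9 stood at 61.1 CPM in wild type, 71.3 in Hez, 78.6 in knockout 1 and 65.95 in knockout 2, a log2 fold of 0.24 against wild type and 0.02 against Hez. Dnajc3, which also restrains the kinase PERK, stood at 222, 243, 249 and 242 CPM, with folds of 0.14 and 0.01.

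The remaining chaperones and cofactors had log2 folds against wild type of 0.19 for Creld2, 0.18 for Manf and 0.08 for the membrane-bound lectin chaperone Canx (calnexin). Creld2 stood at 34.1 CPM in wild type, 32.1 in Hez, 42.9 in knockout 1 and 34.7 in knockout 2, so knockout 2 was close to wild type. Manf is uncertain, since its span in the table overlaps Dcaf1 over 42681 bases on the opposite strand and Rbm15b on the same strand.

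The 3 disulfide isomerases, which form and rearrange disulfide bonds in the ER, all lay above both references in both knockout libraries. Pdia3, which pairs with calnexin and calreticulin, stood at 514 CPM in wild type, 518 in Hez, 598 in knockout 1 and 619.5 in knockout 2. Here knockout 2 was the higher of the knockouts. Its log2 fold against wild type was 0.24 (SE 0.0828, edgeR adjusted p = 0.784). Pdia6 stood at 218 CPM in wild type, 212 in Hez, 266 in knockout 1 and 254 in knockout 2, a fold of 0.26 (SE 0.0968, edgeR adjusted p = 0.858). Pdia4 stood at 122, 113, 140.5 and 130.1 CPM, with folds of 0.15 against wild type and 0.26 against Hez.

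**Figure D2:**
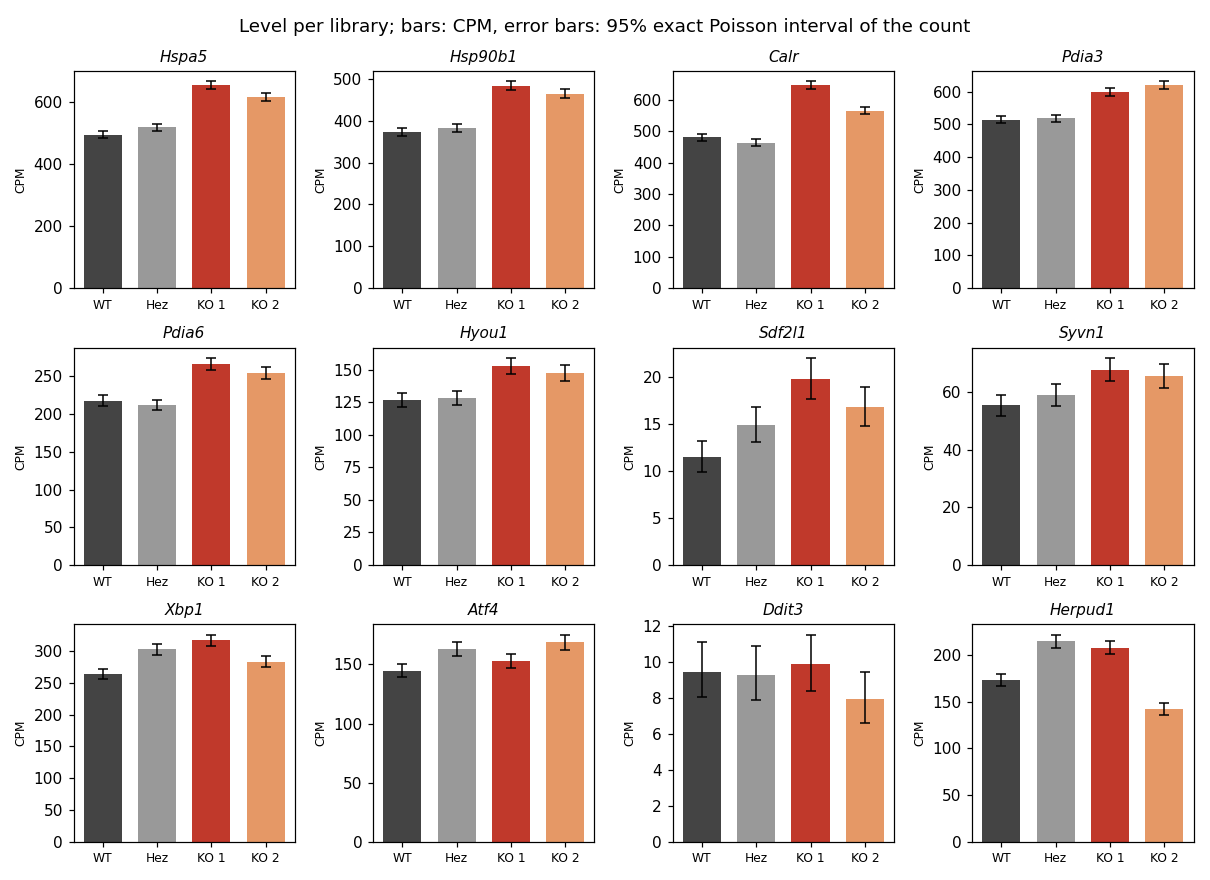
CPM (vertical axis, from 0) in each library (horizontal axis: wild type, Hez, knockout 1, knockout 2) for 12 members; error bars are 95% exact Poisson intervals of the count. For Hspa5 the knockout libraries stand at 655 and 617 CPM, above 494 and 519 in the references, while Xbp1, Atf4, Ddit3 and Herpud1 overlap.

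The 3 stress sensors had small folds against wild type. Ern1, the kinase and nuclease that splices Xbp1, stood at 61.8 CPM in wild type, 69.8 in Hez, 61.5 in knockout 1 and 64.5 in knockout 2. Eif2ak3, the kinase PERK, stood at 44.8, 45.4, 45.1 and 44.7 CPM. Atf6, a membrane-bound transcription factor cut free under stress, stood at 109, 113, 107 and 121 CPM. Its knockout libraries were the lowest and the highest, with 95% exact Poisson intervals of 102 to 112 and 115 to 126 CPM. The log2 folds of Ern1, Eif2ak3 and Atf6 against wild type were 0.03, 0.00392 and 0.07, with SE of 0.105 to 0.117. Activity of these sensors is set by phosphorylation, splicing and cleavage, which read counts per gene do not measure.

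Among the transcription factors, wild type was the lowest library for Xbp1 and Atf4, and Hez lay among the knockouts. Xbp1 stood at 264 CPM in wild type, 302 in Hez, 317 in knockout 1 and 283 in knockout 2. Its log2 fold was 0.18 against wild type (SE 0.104, edgeR adjusted p = 0.996) and -0.01 against Hez. The counts do not separate spliced from unspliced Xbp1. Atf4 stood at 145, 163, 153 and 169 CPM, with folds of 0.15 (SE 0.108, edgeR adjusted p = 0.996) and -0.02.

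Ddit3, which encodes the CHOP factor of prolonged stress, stood at 9.44 CPM in wild type, 9.26 in Hez, 9.84 in knockout 1 and 7.93 in knockout 2. The knockout libraries lay on either side of the references, and the log2 fold was -0.09 (SE 0.26, edgeR adjusted p = 0.996). Its longer row spans the 105-base row, to which 0 reads were assigned, and meets Mars1 on the opposite strand over 68 bases. How reads in these overlaps were counted is not stated.

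The outputs of the ISR differed in the order of the libraries. Trib3, a pseudokinase induced by Atf4 and CHOP, had 84 reads in wild type, 116 in Hez, 120 in knockout 1 and 53 in knockout 2. Knockout 2 was thus the lowest library and knockout 1 the highest, at 3.34 and 7.38 CPM, with intervals of 2.50 to 4.36 and 6.12 to 8.82. Chac1, which degrades glutathione, had 31, 48, 54 and 33 reads, again with Hez and knockout 1 high. Ppp1r15a (GADD34, which ends the translation block) stood at 43.6 CPM in wild type, 48.2 in Hez, 44.8 in knockout 1 and 54.2 in knockout 2, so knockout 2 was the highest. The log2 folds against wild type were 0.05 for Trib3 (SE 0.459), 0.50 for Chac1 (SE 0.511) and 0.18 for Ppp1r15a (SE 0.143).

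Of the genes for ER-associated degradation, Syvn1, the ubiquitin ligase HRD1, lay highest against its error. It stood at 55.4 CPM in wild type, 58.8 in Hez, 67.7 in knockout 1 and 65.4 in knockout 2, a log2 fold of 0.27 against wild type (SE 0.106, edgeR adjusted p = 0.896). Its partner Sel1l stood at 207, 209, 204.5 and 209 CPM, a fold of -0.00396. Edem1, which recognises glycoproteins for degradation, stood at 99.5, 105, 117 and 103 CPM. The folds of Selenos and Derl1, of the retrotranslocation machinery, were 0.08 and 0.05. Derl3, a derlin known from secretory cells, had 19 to 39 reads per library and a fold of 0.47 with an SE of 0.547.

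Herpud1, a stress-inducible scaffold of the HRD1 complex, had the largest difference between the knockout libraries among members above 100 CPM. It stood at 173 CPM in wild type, 214 in Hez, 208 in knockout 1 and 142 in knockout 2. The intervals were 201 to 215 CPM in knockout 1 and 136 to 148 in knockout 2, so the knockouts differed beyond counting error and lay on either side of wild type. The log2 fold was 0.02 against wild type and -0.29 against Hez (SE 0.194 and 0.191). In translocation, Sec61b, a subunit of the channel into the ER, stood at 25.7 to 28.4 CPM, and Sec11c, a catalytic subunit of signal peptidase, at 44.9 to 49.5.

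In knockout against wild type, edgeR called 0 of 32 members at an adjusted p below 0.05, against 8 of 15055 genes, or 0.0531%, of which 0.0133% were higher and 0.0399% lower in the knockouts. Unadjusted p was below 0.05 for 8 members, against 5.18% of genes, each with the knockout higher: Hspa5, Hsp90b1, Calr, Sdf2l1, Pdia3, Pdia6, Syvn1 and Hyou1. An unadjusted p below 0.05 with the knockout higher was found for 1.81% of all genes. The log2 fold was positive for 29 of 32 members, with a median of 0.17, and for 51.1% of all genes, with a median of 0.00449. The median was 0.24 for chaperones and cochaperones, 0.24 for disulfide isomerases, 0.15 for transcription factors, 0.18 for ISR outputs, 0.08 for degradation genes, 0.04 for translocation and 0.03 for sensors. DESeq2 and limma-voom also called 0 members, with unadjusted p below 0.05 for 3 and 8, against 186 and 821 of 15055 genes. The error in this fit comes from the pair of knockout libraries, with information shared across genes. The wild-type and Hez groups hold 1 library each, and the test assumes that these vary like the knockouts.

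Against Hez, edgeR again called 0 members, against 0.00664% of genes. Unadjusted p was below 0.05 for 6 members: Calr (0.39, SE 0.102), Hsp90b1 (0.31, SE 0.0878), Hspa5 (0.29, SE 0.0854), Pdia6 (0.30, SE 0.0969), Pdia3 (0.23, SE 0.0828) and Pdia4 (0.26, SE 0.107), all higher in the knockouts, against 4.61% of genes in either direction and 2.5% in that one. DESeq2 and limma-voom called 0, with 3 and 7 members below an unadjusted p of 0.05, against 164 and 691 of 15055 genes. The log2 fold was positive for 23 of 32 members, with a median of 0.08, against 52.5% of genes. All 11 chaperones and cochaperones and all 3 disulfide isomerases had positive folds, as did 0 of 3 transcription factors. Both comparisons use the same knockout libraries, so their folds are not independent.

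**Figure D3:**
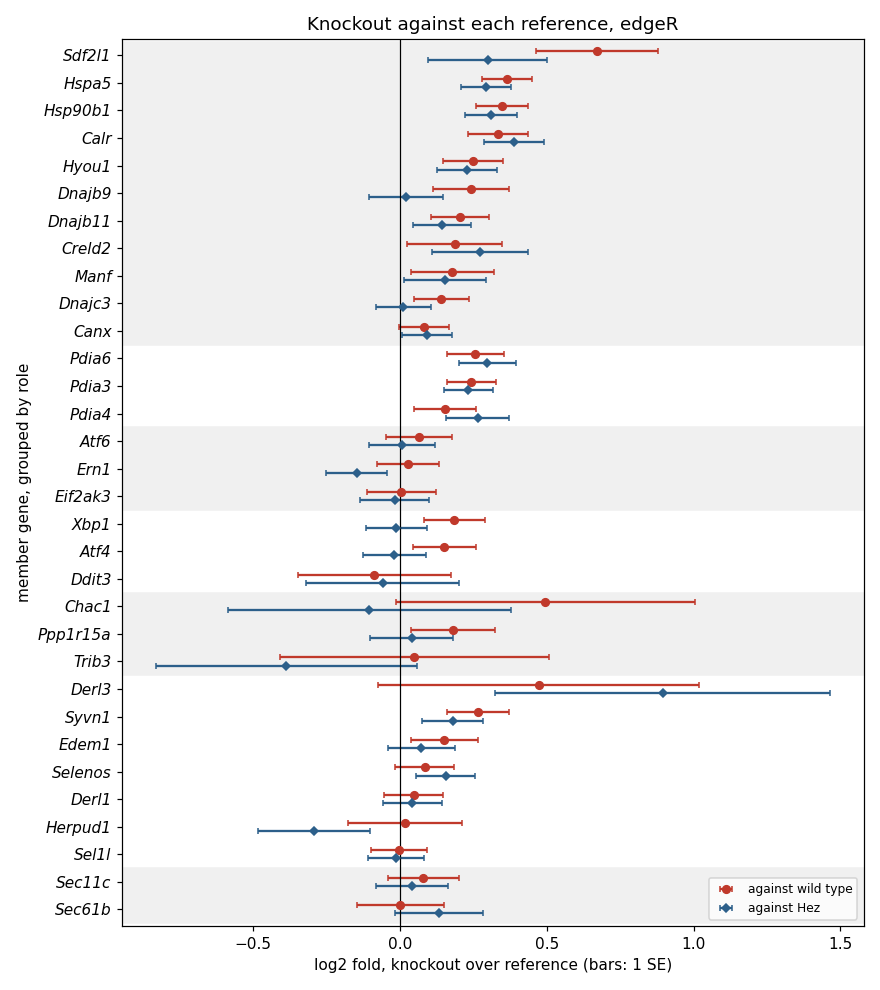
Log2 fold of knockout over wild type (circles) and over Hez (diamonds) on the horizontal axis for the 32 tested members, grouped by role on the vertical axis, with bars of 1 SE from edgeR. Both symbols lie to the right of 0 for all 11 chaperones and cochaperones and all 3 disulfide isomerases, and no member passed the test in either comparison.

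With wild type and Hez as a joint reference (n = 2 against 2), edgeR called 0 members, against 0.0136% of genes, and 10 members had an unadjusted p below 0.05, all higher in the knockouts, against 5.05% of genes in either direction and 2.3% in that one. The fold was positive for 26 of 32 members, against 49.1% of genes. The smallest p-values were those of Hsp90b1 (log2 fold 0.32, SE 0.0681, adjusted p = 0.576), Hspa5 (0.32, SE 0.0703, adjusted p = 0.598) and Calr (0.36, SE 0.083, adjusted p = 0.627). DESeq2 called 0, with 7 members below an unadjusted p of 0.05 and a smallest adjusted p of 0.0822, and limma-voom called 0, with 10. Over all 14674 genes tested here, unadjusted p was below 0.05 for 424 with DESeq2 and 726 with limma-voom. In simulated counts for this comparison, with 15055 genes of which 200 were changed, 38% of genes changed 1.5-fold were called. A difference of the size of the Hspa5 fold, 1.25-fold, is smaller than any size simulated.

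Knockout 1 lay above knockout 2 for 24 of 32 members, against 49.7% of genes. Against wild type the median difference in log2 CPM was 0.22 in knockout 1, with 29 of 32 members above, and 0.12 in knockout 2, with 27 above, against 49.4% and 50.1% of genes. Knockout 1 was the highest library for 22 members, against 24.6% of genes, and wild type the lowest for 17, against 24.2%. The order wild type, Hez, knockout 2, knockout 1 from low to high was found for 7 members, against 4.01% of genes. Taken alone, knockout 1 exceeded both references for 24 members and knockout 2 for 21, against 33.6% and 34.9% of genes. Hez lay above wild type for 23 members, against 49.5% of genes, by a median of 0.04; this difference is given as a description and was not tested. The largest Hez differences from wild type were 0.57 for Chac1, 0.43 for Trib3, -0.39 for Derl3, 0.37 for Sdf2l1 and 0.31 for Herpud1, and 0.07 and 0.04 for Hspa5 and Hsp90b1.

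The promoter table held 27 of the 32 members; Atf6, Derl1, Hyou1, Manf and Sec11c were not matched. In the 250 bases upstream of the start, searched on both strands, 9 of 27 members held an exact ERSE, against 35 of 27025 genes or 0.130%. They were Hspa5, Hsp90b1, Calr, Canx, Creld2, Dnajc3, Pdia6, Syvn1 and Derl3. Since many ER chaperone genes are known to carry this element and the members include such genes, the higher share is not a result of these data. Both knockout libraries exceeded both references for 8 of the 9 members with a match, Dnajc3 being the exception, and for 5 of the 18 members without a match. By Poisson intervals, Canx, Creld2, Syvn1 and Derl3 among the 8 overlapped a reference, and all but Pdia3 among the 5. The median log2 fold of knockout against the joint reference was 0.27 with a match (range 0.07 to 0.66) and 0.09 without (range -0.19 to 0.47). The 0.66 was that of Derl3, with an SE of 0.411. Against wild type alone the medians were 0.27 with a match and 0.15 without. Members with a match also had higher levels, with a median of 63.5 FPKM against 22.9. They differed in role as well. All were chaperones, cochaperones, disulfide isomerases or degradation genes, while the sensors searched, the transcription factors and the ISR outputs had no match. Among chaperones, cochaperones and disulfide isomerases without a match, Sdf2l1, Dnajb11, Pdia3 and Pdia4 lay above both references and Dnajb9 did not. The split by match was thus also a split by role. Among the 11 other tested genes with an exact match, 7 had a positive fold against wild type, with a median of 0.08. No test was made on this split, and other forms of the element, with a changed letter, were not searched.

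**Figure D4:**
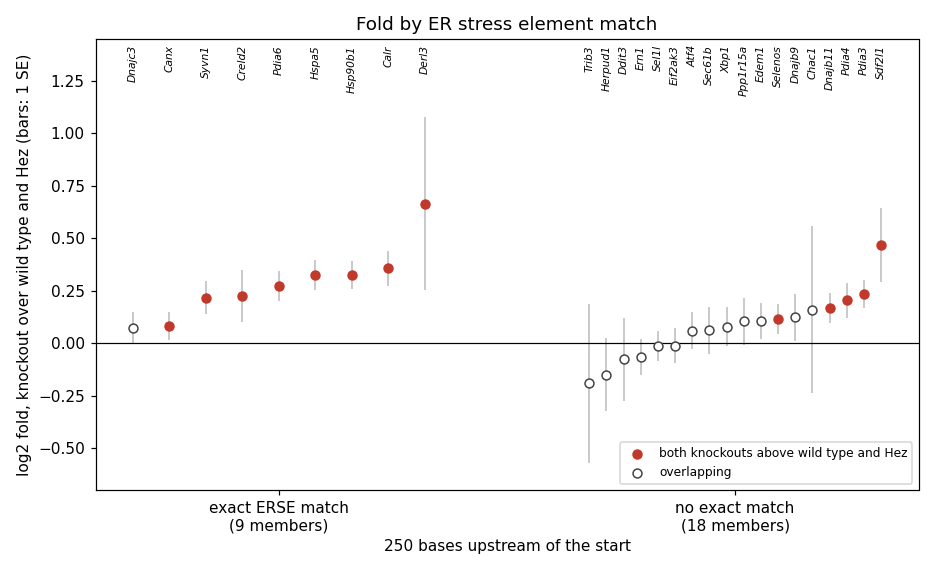
Log2 fold of knockout over wild type and Hez together (vertical axis, bars of 1 SE) for members with an exact ERSE match in the 250 bases upstream (9 members) and without (18 members); filled points have both knockout libraries above both references. Filled points make up 8 of 9 with a match and 5 of 18 without. The groups also differ in role and level.

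Other elements of the response were found in fewer members. The ERSE-II, which is ATTGG, 1 base of any kind and CCACG, and shares the letters CCACG with the ERSE, was found in 1 member, Herpud1, and in 0.0370% of genes. An element bound by ATF4 and CHOP, TGATGCAA, was found in Herpud1 and Chac1, and in 0.918% of genes. The core of the XBP1 element, TGACGTGG, was found in 0 of 27 members and in 0.603% of genes; its reverse complement also holds CCACG. Neither knockout library of Herpud1 lay above Hez, and the Chac1 libraries overlapped.

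Wider lists of the pathway had smaller medians. Of 23 other foldases and cochaperones tested, 19 had a positive log2 fold against wild type, with a median of 0.07. Over all genes 51.1% had a positive fold. Both knockout libraries lay above both references for 7 of the 23. Of 27 other translocon, signal peptidase and glycan genes 17 had a positive fold, with a median of 0.04. The median was -0.01 over 16 other degradation genes, 0.05 over 28 other ISR genes and 0.05 over 12 other sensor and transcription genes. In all 5 lists edgeR called 0 of 106 genes, against 0.0531% of all genes. Unadjusted p was below 0.05 for 4 of the 106, against 5.18% of all genes. Of these 4, 2 were higher in the knockouts, against 1.81% of all genes, so both counts are near the shares over all genes. The higher pair were Cebpb, a transcription factor of stress and inflammation (0.43, SE 0.114, edgeR adjusted p = 0.547), and Herpud2, a relative of Herpud1 (0.28, SE 0.101). The lower pair were Slc7a5, an amino acid transporter (-0.63, SE 0.255), and Sdf2, the relative of Sdf2l1 that stress does not induce (-0.33, SE 0.135). Sdf2 stood at 44.9 CPM in wild type, 38.5 in Hez, 33.7 in knockout 1 and 37.9 in knockout 2. Both knockout libraries exceeded both references for 35 of the 106 genes, against 17.5% of all genes.

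Per length, the members spanned a wide range of levels. Mean FPKM (reads scaled to gene length and library total) over the 4 libraries was 187 ± 28.6 for Calr, 179 ± 16.9 for Pdia3, 135 ± 17.7 for Hspa5 and 105 ± 13.6 for Hsp90b1 (SD over 4 libraries of 3 genotypes). Canx, at 92.8, and Xbp1, at 89.7, came next. The 3 sensors stood at 12.2 FPKM for Atf6, 7.88 for Ern1 and 7.46 for Eif2ak3. Ddit3 stood at 5.32, Trib3 at 2.69, Chac1 at 1.56 and Derl3 at 0.875. Of 31 neighbouring pairs in this order, 22 had overlapping ranges over the libraries, among them Calr with Pdia3 and Hspa5 with Hsp90b1. Calr was above Pdia3 in wild type and knockout 1 and below it in Hez and knockout 2, so that order is not fixed. Hspa5 was above Hsp90b1 in every library, so overlapping ranges alone do not mean that an order changed.

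The summed levels of 4 other gene lists had the same order over the libraries as those of the members: alveolar type 2 markers, cytosolic heat shock genes, B cell markers and the other ISR genes. The summed CPM of the 32 members was 104% of wild type in Hez, 118% in knockout 1 and 113% in knockout 2. The 14 alveolar type 2 markers summed to 102%, 119% and 111%, and 13 of 14 had both knockout libraries above both references. Sftpc, a surfactant protein and their defining marker, stood at 12168 CPM in wild type, 12686 in Hez, 13876 in knockout 1 and 13779 in knockout 2. The 16 cytosolic heat shock genes summed to 102%, 116% and 113%, with 10 of 16 above both. Hspa8, the constitutive Hsp70 of the cytosol, stood at 745, 835, 924 and 933 CPM (log2 fold 0.32 against wild type, SE 0.0753, edgeR adjusted p = 0.445). The other ISR genes summed to 102%, 107% and 103%. The part of these lists in the members' differences was not tested.

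B cell markers summed to 101% of wild type in Hez, 150% in knockout 1 and 110% in knockout 2, and macrophage markers to 94.9%, 126% and 161%. Plasma cell markers summed to 89.7%, 97.2% and 94.6%, so the sum was below wild type in every library. Single genes were mixed. Of the 9 plasma cell markers tested, 6 lay above wild type in knockout 1, against 49.4% of all genes. In knockout 2 and in Hez 3 did, against 50.1% and 49.5%. Their list named 14 genes, the immunoglobulin genes Igkc, Ighm and Igha among them, and 10 of the 14 were found. The summed genes did not include immunoglobulin genes. Club and secretory cell markers summed to 76.6%, 82.3% and 70.0%, and multiciliated markers to 69.0%, 75.9% and 75.4%. Against wild type, edgeR called 3 of 14 club and secretory markers lower in the knockouts, and 0 of 13 multiciliated markers. The share over all genes was 0.0399%. The log2 fold was negative for 13 of 14 and 13 of 13, with unadjusted edgeR p below 0.05 for 12 and 10, against 5.18% of genes. Immediate early genes, which respond quickly to handling of tissue, summed to 153%, 144% and 199%. Of these 14 genes edgeR called 1 higher than in wild type, Zfp36 (0.91, SE 0.0978, adjusted p = 0.0365), against 0.0133% of genes. Fibroblast and matrix markers summed to 96.4%, 100% and 98.8%. None of these marker genes was at 0 in all libraries. Whether any of them bears on the members was not tested.

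**Figure D5:**
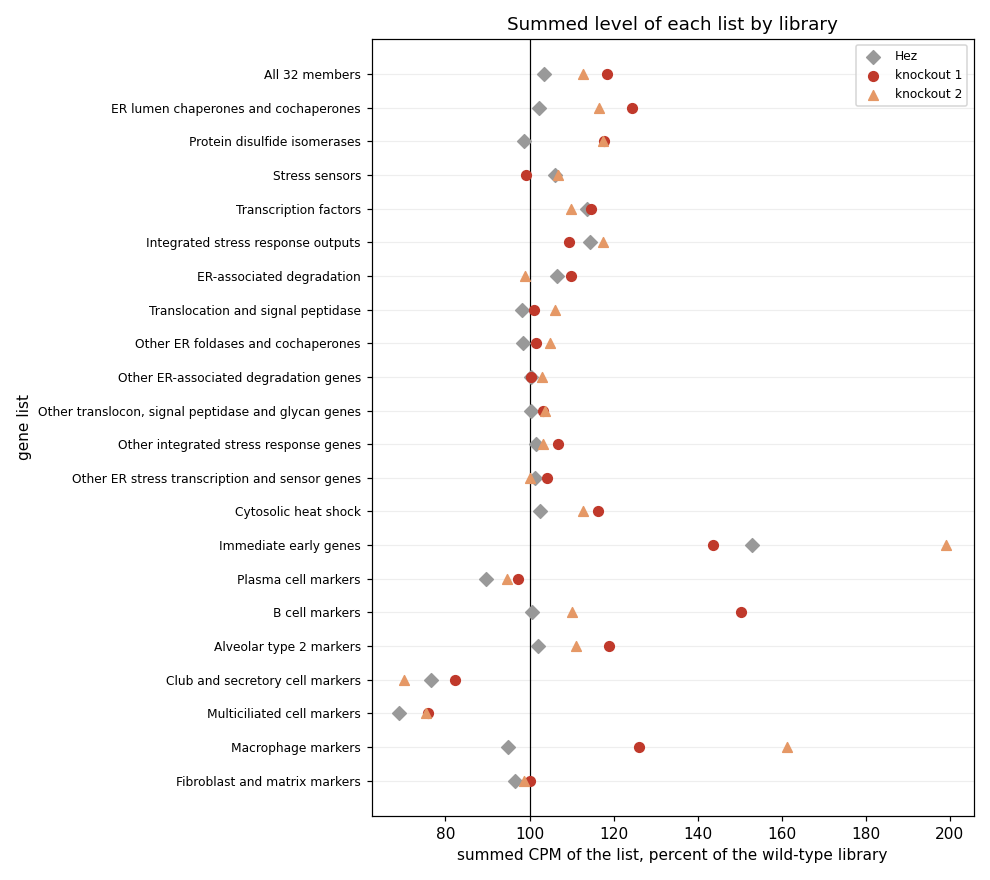
Summed CPM of each gene list as a percent of the wild-type library (horizontal axis) in Hez (diamonds), knockout 1 (circles) and knockout 2 (triangles), with lists on the vertical axis. Chaperones and cochaperones stand at 124% and 116% in the knockouts and alveolar type 2 markers at 119% and 111%, while the club and multiciliated lists lie below 100% in all 3 libraries.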

How the data were processed

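Per the file headers, the deposited table gives each gene's raw read count in the 4 libraries, and FPKM values by the authors, which equal the count over library total and gene length for 66024 of 66024 values above 0 (relative tolerance 1e-06). The submitters' processing notes name GRCm39. Which aligner, counter and strand setting were used is not stated there. Counts were scaled by TMM (factors 0.993 to 1.01), filtered with filterByExpr (minimum count 10) and tested with the edgeR 4.0.16 quasi-likelihood test (two-sided, Benjamini-Hochberg over all genes tested, threshold 0.05) under R 4.3.3. The fit had 3 groups and 1 residual degree of freedom, or 2 groups and 2 for the joint reference, with a common biological coefficient of variation of 0.114 and 0.105. Standard errors are the log2 fold divided by the square root of F. Differences for single libraries use log2 CPM with a prior count of 2. The labels do not say whether each library is 1 animal, so the p-values reflect only how these libraries vary, possibly for technical reasons. Chi-square per gene was 8.23 to 12.1 for each pair, so no pair differs by counting error alone. This does not tell whether the knockout libraries come from separate animals or from the same animal. Between the knockout libraries it was 10.3. That is more than for knockout 1 with wild type (8.68) or Hez (8.23), and less than for knockout 2 with them (12.1 and 11.1). Wild type and Hez differed by 8.33. Simulated counts tested the fit: 16.7%, 62.3% and 89.2% of genes changed 1.5-, 2- and 4-fold were called in knockout against wild type. Alternatives used DESeq2 1.42.0 and limma 3.58.1. Hspa5, Xbp1, Atf4, Ddit3 and the 10 other members with the smallest p carry full statistics, and up to 3 genes per other list are named; Trib3, Chac1, Ppp1r15a, Herpud1, Derl3, Pdia4 and Creld2 are described further, chosen after their values were seen. The members and lists were chosen with earlier results of these data known.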

Additional observations from a re-analysis of the deposited data

How the results depend on the processing

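The members' median log2 fold stayed positive under every alternative run. It ranged from 0.12 to 0.22 over 12 alternatives against wild type, from 0.06 to 0.14 over 12 against Hez, and from 0.08 to 0.18 over 13 against both. The 0.14 and 0.18, more than 1.5 times the values reported, came from leaving out knockout 2. No alternative with a test called a member, and the lowest adjusted p was 0.39, 0.74 and 0.0822 in the 3 comparisons. For the 14 members with full statistics, 512 of 515 values kept their direction or changed sign within 1 SE. An example of such a change is Ddit3 against wild type without knockout 2 (0.06, from -0.09). The exceptions were Dnajb9 without knockout 1 against Hez (-0.12) and against both (-0.01), and Xbp1 without wild type against both (-0.02). Since no fit called a member, the threshold says nothing about how stable these values are. Of all genes, 8 were called against wild type; this was 4 with no filter or a filter at 10 CPM, 14 with DESeq2 and 1 with limma on FPKM at each pseudocount. Against Hez 1 was called, and 7 with DESeq2 and 0 with limma on FPKM with a pseudocount of 0.5 or 0.1. Against both 2 were called; this was 1 with the 10 CPM filter, limma-voom or limma on FPKM with 0.5 or 0.1, 0 with a pseudocount of 1, 22 with DESeq2, and 1 to 107 with a library left out (1 without wild type, 8 without Hez, 107 without knockout 1, 24 without knockout 2). Against wild type and Hez alone, leaving out a knockout library leaves no residual degree of freedom, so these are values with no test. Leaving out the third genotype was added after seeing the data. No paired analysis was possible because the labels carry no replicate numbers. Depth limits Chac1 and Derl3, with 19 to 54 reads per library.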
